A study of Mus musculus with 6 samples.

Results

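The proteasome is the barrel-shaped protease that degrades ubiquitin-tagged proteins, and the transcripts of its subunits and regulators were followed here in the brains of Kdm6a deficient mice and of their wild-type littermates. Subunit genes were taken by symbol: every row named Psma, Psmb, Psmc, Psmd, Psme or Psmf1 with the number its gene family uses, and without pseudogene rows. This gave 45 genes of 43346 rows, of which 20593 rows held any count. Counts were present for 44 of the 45, and Psme2b was at 0 in all 6 libraries. Enough counts for a test were present for 42. Psma8, the testis form of an alpha subunit, had 7, 10 and 5 counts in the deficient and 4, 6 and 7 counts in the wild-type libraries. Psmb11, the thymus form of a catalytic subunit, had 4, 5 and 3 counts in the deficient and 5, 2 and 1 counts in the wild-type libraries. The filter asked for enough counts in at least 3 libraries, the size of 1 group, so a gene could pass through 1 group alone. The 42 tested genes had at least 13 counts in every mouse. Counts of fold changes below are over these 42, while promoter counts and the share of library counts also take in untested subunits.

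RNA was measured in 3 adult male Kdm6a deficient mice and 3 adult male wild-type littermates, all C57BL/6, with 1 brain library a mouse. Litters came from Kdm6a-LoxP mothers mated with Thy1-Cre fathers, and the labels give neither the allele nor the Cre status of the wild-type mice. Thy1-driven Cre acts mainly in neurons, so glia, vessels and blood of a deficient brain can still carry an intact Kdm6a, which encodes an X-linked histone demethylase. The labels name the tissue as brain, without a region. Bulk RNA of this kind cannot tell fewer cells of a type from less RNA per cell.

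Proteolysis takes place in the 20S core, where rings of alpha subunits gate the barrel, and rings of beta subunits carry the proteolytic sites, which are those of Psmb5, Psmb6 and Psmb7. The 19S regulatory particle binds ubiquitin chains, removes them and unfolds the substrate with a ring of ATPases. Interferon-gamma induces Psmb8, Psmb9 and Psmb10, which replace the constitutive catalytic subunits in the immunoproteasome, and it also induces the PA28 activator encoded by Psme1 and Psme2. In the brain the constitutive enzyme turns over synaptic and misfolded proteins, and the immunoproteasome is known mainly from glia and inflamed tissue.

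Libraries held 18542590 to 24531408 counts. Kdm6a stood at 22.3, 25.2 and 25.2 CPM, counts scaled to library size, in deficient mice 1, 2 and 3 and at 34.5, 35.0 and 34.3 CPM in wild-type mice 1, 2 and 3. All 3 deficient mice lay below all 3 wild-type mice, and Kdm6a RNA was at 70.1% of the wild-type level with a log2 fold change of -0.51 ± 0.07 (SE; adjusted p = 0.00780, edgeR). The labels do not say which exons are deleted, and counts are of the whole gene. Of 15030 genes tested, 7 passed a 5% false discovery rate, which is 0.0466%. Markers of neurons summed to 7262 to 7701 CPM in the deficient and 7320 to 7485 CPM in the wild-type mice, and no listed brain cell marker was at 0. Values below are given in the order of mice 1, 2 and 3 of each group, and every fold change is deficient over wild type.

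Promoter sequence is shown for 4 subunits that recur below: Psma7 and Psma6 of the alpha ring, which had the smallest p-values, and the constitutive catalytic genes Psmb5 and Psmb6. Each line gives 150 bases upstream on the gene's own strand, from RefSeq on GRCm38.p6, with motif matches in capitals. The lines end at the RefSeq start, except that of Psmb5, which ends 27 bases short of it.
Psma7, chr2:180042465-180042614, minus strand: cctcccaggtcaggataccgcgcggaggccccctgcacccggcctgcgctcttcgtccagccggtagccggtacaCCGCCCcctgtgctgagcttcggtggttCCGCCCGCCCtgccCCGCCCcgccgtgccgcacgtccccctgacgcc
Psma6, chr12:55384072-55384221, plus strand: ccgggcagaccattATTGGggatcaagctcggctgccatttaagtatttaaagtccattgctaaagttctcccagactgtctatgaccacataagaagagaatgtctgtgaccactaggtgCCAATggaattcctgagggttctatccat
Psmb5, chr14:54618023-54618172, minus strand: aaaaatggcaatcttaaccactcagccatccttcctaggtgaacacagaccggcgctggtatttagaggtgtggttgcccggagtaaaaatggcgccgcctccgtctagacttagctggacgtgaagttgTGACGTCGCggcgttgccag
Psmb6, chr11:70525207-70525356, plus strand: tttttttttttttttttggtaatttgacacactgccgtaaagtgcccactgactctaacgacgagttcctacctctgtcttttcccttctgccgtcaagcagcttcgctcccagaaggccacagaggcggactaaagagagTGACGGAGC
Capitals mark the GC box GGGCGG in Psma7, the CCAAT box in Psma6, and the antioxidant response element TGACNNNGC in Psmb5 and Psmb6, each searched on both strands. That element is bound by the Nrf factors, of which Nrf1, encoded by Nfe2l1, is known to control proteasome genes. It lay 47 to 39 bases before the RefSeq start of Psmb5 and 9 to 1 bases before that of Psmb6. In the 250 bases before the start, 5 of the 38 subunit genes with a RefSeq promoter held it, or 13.2%, against 10.2% of 32851 promoters. Here and below a subunit gene counts if any of its promoters matched, while the comparison is per promoter. The shares are thus not alike, since a gene with several starts has more chances to match. The GC box was found in 21 of 38, or 55.3%, against 32.7%. A CCAAT box was found in 14 of 38, or 36.8%, against 33.8%, and 5 of those 14 were among the 7 alpha-ring genes. The core of the interferon-stimulated response element matched 3 of 38, or 7.89%, against 2.98%, and none of the 3 was an immunoproteasome gene. The gamma-interferon activated site TTCNNNGAA matched Psmb8 alone, or 2.63%, against 7.02%. TGACGTCA matched none of the 38 and 1.55% of all promoters. In Psma7, 2 of the 4 GC boxes overlap each other. A match is a description of letters, not of a bound site.

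No subunit gene passed the test. Of the 42, 0 were past the 5% false discovery rate in edgeR's quasi-likelihood test, where 0.0133% of all genes tested were called higher and 0.0333% lower, and the smallest adjusted p was 0.435 (edgeR), for Psma7. At an unadjusted p under 0.05, 8 were higher in deficient mice, beside 2.56% of all genes tested, and 0 were lower, beside 3.3%. The 8 became 1 when deficient mouse 1 was dropped, 2 when wild-type mouse 1 was dropped and 4 when deficient mouse 2 was dropped. In both directions together 5.86% of all genes tested had such a p. DESeq2 also called 0, where 0.154% of the 13002 genes with an adjusted p were called. At an unadjusted p under 0.05 in DESeq2, 3 of the 42 were higher, beside 146 of the 15030 genes tested in edgeR. Over all 20587 genes with a DESeq2 p, many of them with few counts, the share was 0.772%.

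The direction of the small differences was uneven. A positive log2 fold change was found for 37 of the 42, against 50.8% of all genes tested, and the median was 0.07 against 0.00. In 16 of the 42 every deficient mouse lay above every wild-type mouse, beside 5.7% of all genes tested, and in 0 did every deficient mouse lie below, beside 5.49%. Subunit genes together took 0.336%, 0.332% and 0.333% of all counts in the deficient and 0.309%, 0.320% and 0.324% in the wild-type libraries, so the groups did not overlap. Of the 16, 8 overlap an annotated gene on the opposite strand, beside 18 of all 45 subunit genes. Differences were small: 41 of the 42 had a log2 fold change within 0.2 of 0. Their median transcript length was 1586 bases against 3116 for all genes tested. With a correction for length and GC content in each library, 29 of the 42 were positive against 52.3% of all genes, the median was 0.04, and 12 lay wholly above and 1 wholly below, beside 5.64% and 5.15%. At an unadjusted p under 0.05 in that fit 2 were higher, beside 2.53%, and 0 lower, beside 2.75%. The 1 gene wholly below was Psmb2, which was named after its values were seen.

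**Figure D1:**
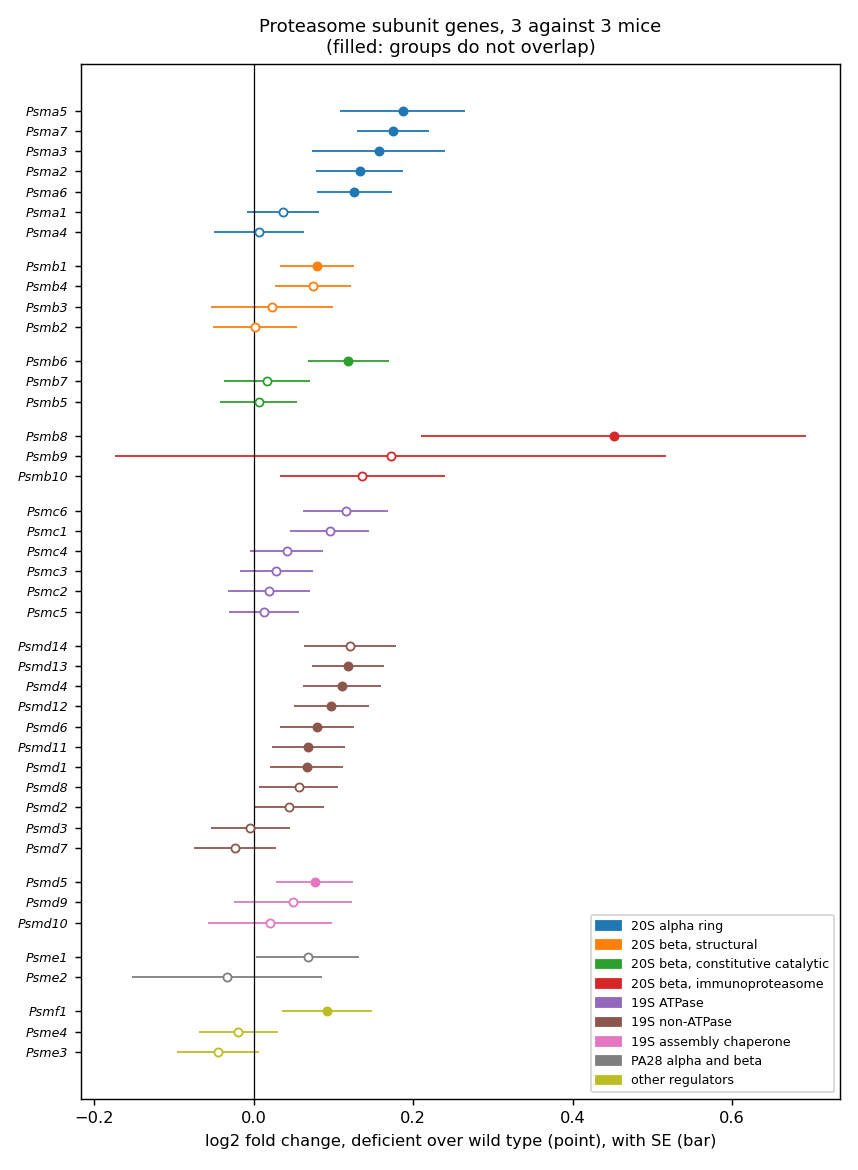
Log2 fold change of each of the 42 tested subunit genes, deficient over wild type, as points with standard errors as bars, coloured by role and ordered by size within it. Filled points mark the 16 genes whose 3 deficient mice all lay above the 3 wild-type mice; 37 points lie to the right of 0, and Psmb8 has the value farthest from 0.

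The 20S alpha ring, which gates the entry to the barrel, had a positive log2 fold change in all 7 of its genes, with a median of 0.13. In 5 of the 7 every deficient mouse lay above every wild-type mouse, beside 5.7% of all genes tested. With the length and GC correction this held for 2 of the 7, Psma6 and Psma7, beside 5.64%. Psma7 stood at 96.2, 95.6 and 93.8 CPM in the deficient and 83.8, 82.5 and 86.7 CPM in the wild-type mice. The deficient mice were the 3 highest, with little spread among them, and the log2 fold change was 0.17 ± 0.05 (SE; adjusted p = 0.435, edgeR). Psma6 stood at 97.9, 94.9 and 96.7 CPM in the deficient and 85.4, 88.2 and 91.5 CPM in the wild-type mice, with a log2 fold change of 0.13 ± 0.05 (SE; adjusted p = 0.771, edgeR). Again no wild-type mouse reached the deficient mice. Psma2 stood at 96.1, 92.4 and 88.4 CPM in the deficient and 78.3, 86.2 and 88.1 CPM in the wild-type mice. Its groups were separated by a narrow gap between deficient mouse 3 and wild-type mouse 3, and the log2 fold change was 0.13 ± 0.05 (SE; adjusted p = 0.798, edgeR). Psma5 stood at 20.3, 17.9 and 20.4 CPM in the deficient and 17.9, 16.8 and 16.7 CPM in the wild-type mice, with a log2 fold change of 0.19 ± 0.08 (SE; adjusted p = 0.798, edgeR). Here deficient mouse 2 lay close to wild-type mouse 1. Psma3 had groups without overlap as well, at 0.16 ± 0.08 (SE; adjusted p = 0.875, edgeR) on the log2 scale, while those of Psma1 and Psma4 overlapped. With that correction 5 of the 7 were positive and the ring's median was 0.08. Psma2, Psma3, Psma4, Psma5 and Psma6 each overlap an annotated gene on the opposite strand, and the sources used here do not say whether counting used strand.

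Averaged over the 7 alpha-ring genes, log2 CPM minus the mean of the wild-type mice came to 0.14, 0.11 and 0.10 in the deficient and -0.02, -0.02 and 0.04 in the wild-type mice. Over all 42 genes it was 0.08, 0.08 and 0.06 in the deficient and -0.03, -0.01 and 0.04 in the wild-type mice. Wild-type mouse 3 was the highest of its group in both. Nuclear genes of the respiratory chain are another set of housekeeping genes. They gave 0.05, 0.03 and 0.05 in the deficient and -0.05, -0.0047 and 0.05 in the wild-type mice. Of the 77, 72 were positive, 11 lay wholly above and 1 wholly below, beside 5.7% and 5.49% of all genes tested. Their median log2 fold change was 0.062, against 0.068 for the subunits, and their lowest value was -1.36. Cytosolic ribosomal protein genes gave 0.17, 0.03 and 0.01 in the deficient and -0.04, -0.03 and 0.07 in the wild-type mice. Of the 78 tested, 64 were positive, with a median log2 fold change of 0.055. Wholly above lay 3 and wholly below 0, beside the same 5.7% and 5.49%. Deficient mouse 1 was the highest library for ribosomal genes, and wild-type mouse 3 lay above the other 2 deficient mice there. Whether the subunits differ from these families was not tested.

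**Figure D2:**
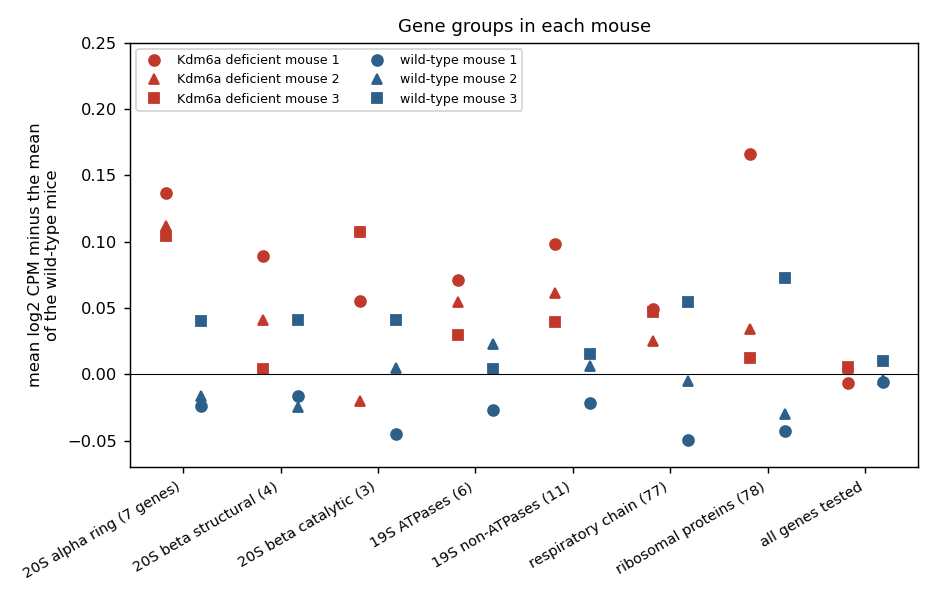
Mean log2 CPM of gene groups minus the mean of the wild-type mice, with 1 point for each mouse and the number of genes in brackets. The alpha ring sits at 0.10 to 0.14 in the 3 deficient mice and at -0.02 to 0.04 in the wild-type mice. The groups mix for the structural and the catalytic beta subunits, as they do for the respiratory chain and the ribosomal proteins.

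The structural beta subunits, which hold the inner rings together, showed smaller values: 4 of 4 were positive, with a median of 0.05. With the length and GC correction 2 of 4 were positive, with a median of 0.02. Psmb1 stood at 125, 120.5 and 122 CPM in the deficient and 113, 117 and 118 CPM in the wild-type mice. Its groups did not overlap, and the log2 fold change was 0.08 ± 0.05 (SE; adjusted p = 0.891, edgeR). Psmb4 stood at 124, 119 and 118 CPM in the deficient and 111, 113 and 118 CPM in the wild-type mice, with a log2 fold change of 0.07 ± 0.05 (SE; adjusted p = 0.892, edgeR). Its groups overlapped, but with that correction every deficient mouse lay above every wild-type mouse.

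The constitutive catalytic subunits did not all separate the groups. All 3 were positive, but with the length and GC correction only 1 of the 3 was. Psmb5, the chymotrypsin-like subunit that bortezomib targets, stood at 81.6, 76.1 and 83.4 CPM in the deficient and 79.3, 79.0 and 81.7 CPM in the wild-type mice. Deficient mice held both the lowest and the highest value, and the log2 fold change was 0.01 ± 0.05 (SE; adjusted p = 0.993, edgeR). Psmb6, the caspase-like subunit, stood at 81.8, 80.6 and 84.2 CPM in the deficient and 70.8, 77.2 and 79.1 CPM in the wild-type mice. Every deficient mouse lay above every wild-type mouse, though not with the length and GC correction, and the log2 fold change was 0.12 ± 0.05 (SE; adjusted p = 0.808, edgeR). Psmb7, the trypsin-like subunit, stood at 124, 116 and 132 CPM in the deficient and 120.0, 123 and 125 CPM in the wild-type mice, with a log2 fold change of 0.02 ± 0.05 (SE; adjusted p = 0.987, edgeR). The wild-type mice lay inside the range of the deficient mice. Reads of Psmb7 and of Nek6 on the opposite strand may have been mixed, since the sources used here do not say whether counting used strand.

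Their immunoproteasome counterparts were scarce. Psmb8 had 28, 28 and 25 counts in the deficient and 18, 16 and 23 counts in the wild-type mice. In CPM this was 1.25, 1.14 and 1.22 CPM in the deficient and 0.799, 0.867 and 0.962 CPM in the wild-type mice. The deficient mice were the 3 highest, and the log2 fold change of 0.45 ± 0.24 (SE; adjusted p = 0.879, edgeR) had the second widest error of the 42. On the opposite strand Gm20496 overlaps Psmb8 and Gm16156 overlaps Psmb10, so reads may have been mixed there too. Psmb9 had 14, 33 and 23 counts in the deficient and 15, 13 and 32 counts in the wild-type mice, or 0.625, 1.34 and 1.13 CPM in the deficient and 0.666, 0.704 and 1.34 CPM in the wild-type mice. Deficient mouse 1 was the lowest of the 6 and wild-type mouse 3 was level with deficient mouse 2, with a log2 fold change of 0.17 ± 0.35 (SE; adjusted p = 0.975, edgeR). Psmb10 stood at 9.46, 8.32 and 8.62 CPM in the deficient and 7.99, 7.47 and 8.49 CPM in the wild-type mice, with a log2 fold change of 0.14 ± 0.10 (SE; adjusted p = 0.909, edgeR). Its groups overlapped at wild-type mouse 3, but with the length and GC correction every deficient mouse lay above every wild-type mouse. Psmb9 runs opposite to and overlaps Tap1, a peptide transporter gene beside it on chromosome 17, so their reads cannot be told apart without strand.

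**Figure D3:**
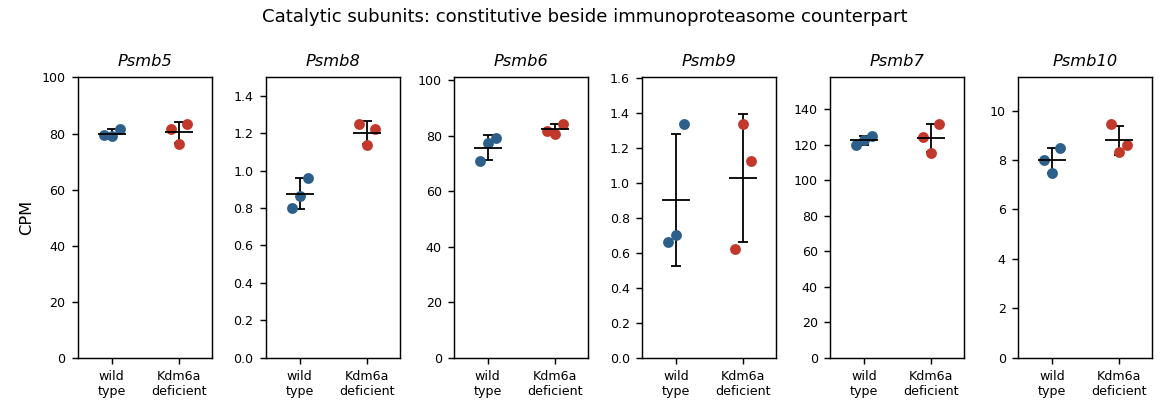
CPM of each constitutive catalytic subunit beside its immunoproteasome counterpart, with 1 point for each mouse and the mean and SD of 3 mice as bars; each panel has its own axis from 0. Psmb8 separates the groups, Psmb9 and Psmb10 do not, and Psmb6 is the constitutive gene whose groups do not overlap.

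The balance between the catalytic sets overlapped between groups. The log2 ratio of summed CPM of Psmb8, Psmb9 and Psmb10 to that of Psmb5, Psmb6 and Psmb7 was -4.67, -4.66 and -4.77 in the deficient and -4.84, -4.95 and -4.73 in the wild-type mice. Wild-type mouse 3 lay above deficient mouse 3, and the means differed by 0.14. Psmb10 supplied most of the immunoproteasome sum. Without it and its counterpart Psmb7, the log2 ratio was -6.45, -5.98 and -6.16 in the deficient and -6.68, -6.64 and -6.13 in the wild-type mice. The means then differed by 0.29, and wild-type mouse 3 still lay within the deficient range. Per kb of transcript, the immunoproteasome set made up 2.67% ± 0.11 of the 6 catalytic genes in deficient and 2.46% ± 0.18 in wild-type mice (SD, n = 3 each). Over the 6 mice, Psmb5 was 144-fold ± 26.2 above Psmb8 per kb, Psmb6 was 153-fold ± 50.3 above Psmb9, and Psmb7 was 16.7-fold ± 1.29 above Psmb10 (SD, n = 6).

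The interferon-induced activator genes did not separate the groups. Psme1 stood at 25.5, 26.6 and 26.8 CPM in the deficient and 23.8, 25.5 and 25.9 CPM in the wild-type mice, with a log2 fold change of 0.07 ± 0.06 (SE; adjusted p = 0.936, edgeR). Psme2 stood at 6.51, 7.67 and 8.03 CPM in the deficient and 8.39, 6.88 and 7.40 CPM in the wild-type mice, with a log2 fold change of -0.03 ± 0.12 (SE; adjusted p = 0.989, edgeR). The groups overlapped for each gene. Psme1 overlaps Emc9 on the opposite strand, so their reads may have been mixed. Psme2 and Psme2b are 99.4% identical over 794 bases, so the counting may have split or dropped their reads, and the value of Psme2 is uncertain. Beside these genes, microglial markers summed to 291 to 330 CPM in the deficient and 312 to 340 CPM in the wild-type mice, with 9 of 11 negative. Blood markers summed to 77.1 to 97.6 CPM in the deficient and 63.6 to 79.1 CPM in the wild-type mice, with 9 of 10 positive. None of the 11 microglial or 10 blood markers was at 0, and their part in the immunoproteasome values was not tested.

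In the base of the 19S particle, all 6 ATPase genes were positive, with a median of 0.03, and the groups of all 6 overlapped. With the length and GC correction 4 of the 6 were positive, with a median of 0.01. Psmc6 stood at 87.9, 91.2 and 87.6 CPM in the deficient and 77.7, 88.3 and 80.5 CPM in the wild-type mice, with a log2 fold change of 0.12 ± 0.05 (SE; adjusted p = 0.850, edgeR). Psmc1 stood at 127, 124 and 116 CPM in the deficient and 113, 114 and 117 CPM in the wild-type mice, with a log2 fold change of 0.10 ± 0.05 (SE; adjusted p = 0.867, edgeR). In both, at least 1 wild-type mouse reached the range of the deficient mice. With the same correction the log2 fold change was 0.04 for Psmc6 and 0.06 for Psmc1.

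Among the non-ATPase subunits of the 19S particle, 9 of 11 were positive, with a median of 0.07. In 6 of 11 every deficient mouse lay above every wild-type mouse, beside 5.7% of all genes tested. With the length and GC correction this held for 4 of 11, beside 5.64%. Psmd13, a lid subunit, stood at 85.3, 81.2 and 80.1 CPM in the deficient and 75.6, 75.8 and 75.9 CPM in the wild-type mice. The deficient mice were the 3 highest, and the log2 fold change was 0.12 ± 0.05 (SE; adjusted p = 0.771, edgeR). Psmd13 overlaps Sirt3 on the opposite strand. Psmd4, a receptor for ubiquitin chains, stood at 105, 101 and 101 CPM in the deficient and 90.3, 97.5 and 96.9 CPM in the wild-type mice, with a log2 fold change of 0.11 ± 0.05 (SE; adjusted p = 0.835, edgeR). No wild-type mouse reached the deficient mice. The 2 negative genes were Psmd7, the lid partner of the deubiquitinase Psmd14, and Psmd3. Psmd7 stood at 108, 102 and 96.2 CPM in the deficient and 102, 106 and 104 CPM in the wild-type mice, with a log2 fold change of -0.02 ± 0.05 (SE; adjusted p = 0.976, edgeR). Psmd3 stood at 142, 136 and 142 CPM in the deficient and 139, 135 and 148 CPM in the wild-type mice, with a log2 fold change of -0.0041 ± 0.05 (SE; adjusted p = 0.996, edgeR). Both overlapped between groups.

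The chaperones that assemble the 19S base, Psmd5, Psmd9 and Psmd10, were positive in 3 of 3, with a median of 0.05. With the length and GC correction 2 of 3 were positive. Psmd5 stood at 53.4, 53.2 and 52.0 CPM in the deficient and 51.0, 49.3 and 50.1 CPM in the wild-type mice. Its groups did not overlap, with a log2 fold change of 0.08 ± 0.05 (SE; adjusted p = 0.892, edgeR). Psmd9 stood at 25.3, 24.9 and 22.1 CPM in the deficient and 22.4, 24.7 and 23.0 CPM in the wild-type mice, with a log2 fold change of 0.05 ± 0.07 (SE; adjusted p = 0.963, edgeR). Its groups overlapped.

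Of the other regulators, Psmf1, which encodes the inhibitor PI31, stood at 41.7, 39.7 and 40.5 CPM in the deficient and 36.1, 39.0 and 39.3 CPM in the wild-type mice. Its groups did not overlap, with a log2 fold change of 0.09 ± 0.06 (SE; adjusted p = 0.891, edgeR). Psme3, the nuclear PA28 gamma activator, stood at 112, 112 and 103 CPM in the deficient and 110.4, 117 and 111 CPM in the wild-type mice, with a log2 fold change of -0.04 ± 0.05 (SE; adjusted p = 0.940, edgeR). Psme4, the PA200 activator, stood at 59.0, 61.9 and 59.1 CPM in the deficient and 60.4, 63.0 and 59.1 CPM in the wild-type mice, with a log2 fold change of -0.02 ± 0.05 (SE; adjusted p = 0.981, edgeR). The groups of both activators overlapped.

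Levels were compared between subunits per kb of transcript, over the 6 mice. By that length Psmc5 was the highest at 144 ± 1.79 CPM per kb (SD, n = 6), followed by Psmb7 at 106 ± 4.65 CPM per kb (SD, n = 6). Psmb4, Psmb6 and Psma7 came next, at 99.1 ± 3.78 CPM per kb (SD, n = 6), 99.0 ± 5.83 CPM per kb (SD, n = 6) and 98.2 ± 6.73 CPM per kb (SD, n = 6), and did not differ beyond their spread. Constitutive catalytic genes had a median of 99.0, 19S ATPases 69.5, structural beta genes 64.1, 19S non-ATPases 50.9 and alpha-ring genes 40.2 CPM per kb. The order depends on the length used, since transcript length takes in untranslated ends. Per kb of coding sequence Psmb1 was highest at 165, ahead of Psmc5 at 155 and Psmb7 at 148. The role medians were then 117 for structural beta, 110.6 for constitutive catalytic, 96.7 for alpha-ring, 85.3 for ATPase and 72.5 for non-ATPase genes. The 19S chaperones, which are not part of the finished particle, had a median of 11.5, and the immunoproteasome genes 0.715 CPM per kb. The lowest gene of the core and the 19S particle was Psma3 at 4.72 ± 0.352 CPM per kb (SD, n = 6).

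Copies elsewhere in the genome are given beside that order. Of the 31 genes of the constitutive core and the 19S particle, 9 match another annotated gene at 95% identity or more over at least 200 bases. Their median was 40.2 against 64.1 CPM per kb for the other 22. For Psmd1 among the 9 the match is Gm21972, which overlaps Psmd1 itself on the same strand and is not a copy elsewhere. Psma3, Psma5, Psmb3 and Psma4 are among the 9, and rows of their processed pseudogenes held 0 to 3 counts. The sources used here do not say how reads matching several places were counted, so levels of these genes are uncertain and their part in the order was not tested.

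**Figure D4:**
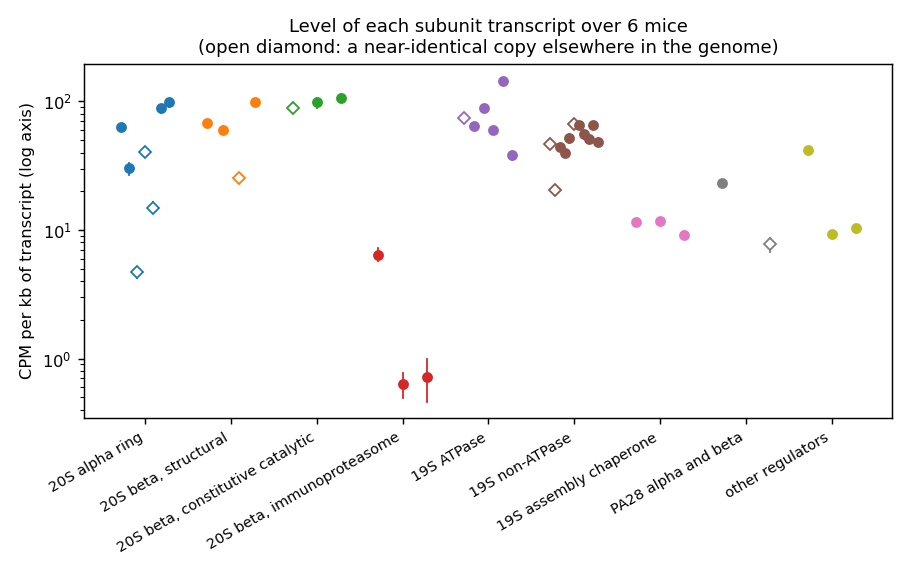
Level of each tested subunit gene in CPM per kb of transcript on a log axis, as the mean of 6 mice with a line from the lowest to the highest mouse, by role. Open diamonds are genes with a near-identical copy, except that the match of Psmd1 is a gene overlapping Psmd1 itself. Psmb8 and Psmb9 of the immunoproteasome lie lowest, with Psmb10 at 6.40 CPM per kb above Psma3 at 4.72.

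Genes that build, control or feed the proteasome showed no call. Of 15 tested assembly and associated genes 0 passed in either direction, 10 were positive and the median log2 fold change was 0.01. Psmg4 and Psmg3, chaperones of the alpha ring, had log2 fold changes of 0.15 (SE 0.12) and -0.18 (SE 0.16). Akirin2, which carries proteasomes into the nucleus, had 0.05 (SE 0.05). Of 8 genes controlling proteasome transcription 0 passed, 4 were positive and the median was -0.02. Nfe2l1 itself had -0.06 (SE 0.04), its activating protease gene Ddi2 had -0.12 (SE 0.07), and Ngly1, which removes its glycans, had 0.06 (SE 0.07). Of 11 genes for ubiquitin, its activation and shuttling 0 passed, 4 were positive and the median was -0.02. Ubqln4 and Ubqln2, shuttles to the proteasome, had -0.05 (SE 0.05) and 0.03 (SE 0.05), and Uba6, a ubiquitin-activating enzyme, had -0.07 (SE 0.08). Of 14 interferon and antigen presentation genes 0 passed, 7 were positive and the median was -0.01. Irf1, a transcription factor that induces immunoproteasome genes, had -0.26 (SE 0.13), with every deficient mouse below the wild-type mice. Isg15, an interferon-induced ubiquitin-like protein, had 0.32 (SE 0.23), with every deficient mouse above, and Tapbp, which helps load peptides, had -0.11 (SE 0.07). None of these 48 genes had an unadjusted p under 0.05 in edgeR.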

How the data were processed

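Brain RNA was sequenced from 3 Kdm6a deficient and 3 wild-type mice, from total RNA with TruSeq libraries, per the labels' protocols. The deposited table holds the authors' raw counts per gene for each mouse. Per the file headers it also holds the authors' DESeq2 mean normalized count (a signal), log2 fold change with its error, Wald score and p-values. The build is GRCm38, per the submitters' processing notes. The sources used here do not name the aligner or the counter, or say whether strand was used. Only the raw counts were analysed.

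Counts were tested in edgeR 4.0.16 (R 4.3.3) with TMM scaling, a filter on low counts (minimum 10) and the robust quasi-likelihood test, two-sided, with Benjamini-Hochberg adjustment over 15030 genes. Standard errors were taken from the F statistic. CPM used TMM-scaled totals, and log2 CPM a prior count of 2. DESeq2 1.42.0 and limma 3.58.1 voom were alternatives, with other filters and scalings, a replicate block, each mouse left out, and a length and GC correction (splines, 4 degrees of freedom). Lengths came from GENCODE M21. The code was tested on simulated data with 200 changed genes. Changes of 1.25-fold were recovered in 34% and those of 4-fold in 96%, and 13 of 159 calls were false.

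Subunits and gene lists were chosen with earlier results of these data known. Named subunits are all 6 catalytic genes, Psme1 and Psme2, the 2 smallest p-values of each role and the 5 smallest in each direction, plus the 3 smallest of each pathway list. Genes without counts or below the filter were not tested. Mice of a group are separate animals by their labels. Counting error and the spread of 3 mice limit precision.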

Additional observations from a re-analysis of the deposited data

How the results depend on the processing

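No subunit gene passed the 5% false discovery rate under any alternative run, and DESeq2 left 5 of them without an adjusted p. The number of genes called in all was 7. It became 25 when low counts were not filtered and 20 in DESeq2, and leaving out each mouse in turn gave 3 to 17, the 3 being without wild-type mouse 2. Over the same fits the median log2 fold change of the subunits was 0.05 to 0.08 and 33 to 38 were positive. Subunits higher at an unadjusted p under 0.05 numbered 8 with all mice. That number was 1 when deficient mouse 1 was dropped, 2 when wild-type mouse 1 was dropped, and 4 when deficient mouse 2 was dropped. Kdm6a had an edgeR adjusted p of 0.05001 without wild-type mouse 2, with a log2 fold change of -0.51. The difference in the immunoproteasome ratio was 0.08 to 0.19 when 1 mouse was left out and 0.29 without Psmb10 and Psmb7, and its value does not depend on the filter, the test or the block.

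Chosen after seeing the data were the ratio without Psmb10 and Psmb7, the counts of groups that do not overlap under other scalings and the set of 32 subunits with no near-identical copy, of which 28 were positive with a median of 0.08. That set also leaves out Psmd1, whose match is a gene overlapping Psmd1 itself. Deviations of mice with the same number in each group had correlations of -0.0006, 0.08 and 0.05. Pairs with unlike numbers ranged from -0.13 to 0.07. Such values cannot show whether mice of the same number share a litter or a batch, and the labels do not pair them. With a replicate block 15 genes were called, of which 0 were subunits. With the length and GC correction and the replicate block together 32 genes were called and the subunits' median was 0.042.

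Signs turned for log2 fold changes near 0, and the cause was not tested. When 1 mouse was left out, Psmb5 ranged from -0.021 to 0.043, Psmb7 from -0.030 to 0.063, Psmb9 from -0.082 to 0.59, Psmd3 from -0.036 to 0.033, Psmd7 from -0.065 to 0.017, Psme2 from -0.095 to 0.048, Psme4 from -0.045 to 0.0031, Uba6 from -0.15 to 0.030 and Ubqln2 from -0.0091 to 0.066. With the length and GC correction Psmb5 was -0.017, Psmb7 -0.023 and Psme4 0.0028, and with the block added they were -0.017, -0.024 and 0.0017. Low counts limit Psmb8 and Psmb9, with 13 to 33 counts a mouse.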

Other observations

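Psmc3ip carries a subunit-like symbol but encodes Hop2, a meiotic recombination factor, not a subunit, and was left out. It was named after its values were seen. It had 210, 221 and 48 counts in the deficient and 55, 148 and 50 counts in the wild-type mice. Deficient mice 1 and 2 and wild-type mouse 2 were high and the other 3 mice low, so the groups overlapped.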
